A study of Mus musculus and Homo sapiens with 56 samples.

Results

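The regions described here are m6A peaks of mouse embryonic stem cells whose summit lay in the first exon of a gene. They were taken from the deposited peak list of METTL3 D395A cells and from that of wild-type (WT) cells. A peak was a member when its summit fell in the most 5′ merged exon of a gene with at least 2 merged exons in the RNA-seq count table. Where exons of several genes covered the summit, the gene with the highest summed count was taken. The D395A list gave 914 such peaks of 38823 (2.35%) on 890 genes, and the WT list gave 1277 of 48445 (2.64%) on 1232 genes. Together these are 2191 of the 87268 mouse peaks, and all 8 m6A lists of the series hold 201133 peaks. The count table holds 52459 genes, of which 31562 have 2 or more merged exons.

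The series examined m6A on RNA and the repressive histone mark H3K9me2 in mouse stem cells and in human HEK293T cells. The D395A cells are E14TG2a mouse embryonic stem cells with a substitution in the catalytic site of METTL3, and the WT cells are E14TG2a without it. Both were grown untreated in N2B27 medium with LIF, the MEK inhibitor PD0325901 and the GSK3β inhibitor CHIR99021. The sources used here do not give whether the D395A line is 1 clone. m6A was measured by antibody immunoprecipitation of chromatin RNA against input, with 1 peak list per genotype. D395A had 1 immunoprecipitation and 1 input library, and WT had 2 of each, so the lists do not come from a balanced design. RNA-seq of rRNA-depleted RNA had 2 libraries per genotype, with 12743677 and 18151353 counts in D395A and 13953069 and 19246342 counts in WT. The labels do not say that libraries came from separate cultures, so p-values measure only the spread between these libraries. All 9 embryonic stem cell markers examined were at 1 CPM (counts scaled to library size) or more in every library, with summed levels of 2044 and 1998 CPM in D395A and 3964 and 3857 CPM in WT. Of 10 fibroblast or feeder markers, 3 reached 1 CPM in every library, and the list summed to 23.2 and 18.8 CPM in D395A and 31.8 and 32.2 CPM in WT.

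METTL3 is the catalytic subunit of the complex that methylates adenosine in messenger RNA at the N6 position while transcription is under way. Most m6A lies in long internal exons, near stop codons and in 3′ untranslated regions. The start of a transcript holds a different modified base: where the first transcribed nucleotide is adenosine, PCIF1 can turn it into m6Am beside the cap, and antibodies against m6A also bind m6Am. The antibody signal at a first exon can therefore come from either modification, and peaks of this width do not separate them. METTL3 methylates within a motif whose usual core reads GGAC.

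Starts of genes with the best-ranked first-exon peaks are shown first, because the modified base at the cap depends on the first transcribed letter. Each line gives 50 bases before the RefSeq start, the first transcribed base by RefSeq in capitals and the following bases (GRCm38.p6, which is mm10). Distances are measured from the count table's gene start instead. Relative to it the RefSeq start lay at -57 bp in Fth1, -45 bp in Lcmt2 and -62 bp in Togaram1. The stretches of these genes therefore end before the table's first exon. In the other genes shown the RefSeq start lay between -18 and 17 bp. Ranks are by the authors' -log10 p within a list. Nufip2, Fth1, Hnrnpu and Actn1 had a first-exon peak in the D395A list only, Twnk, Hirip3, H2-M5 and Wnk1 in both lists, and Lcmt2 and Togaram1 in the WT list only.
Nufip2, chr11:77686089-77686168, plus strand: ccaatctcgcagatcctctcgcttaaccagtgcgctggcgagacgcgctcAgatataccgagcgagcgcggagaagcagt
Fth1, chr19:9982596-9982675, plus strand: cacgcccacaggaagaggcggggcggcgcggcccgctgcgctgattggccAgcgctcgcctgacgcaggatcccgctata
Hnrnpu, chr1:178337786-178337865, minus strand: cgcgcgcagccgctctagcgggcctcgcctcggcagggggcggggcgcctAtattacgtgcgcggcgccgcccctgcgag
Actn1, chr12:80260334-80260413, minus strand: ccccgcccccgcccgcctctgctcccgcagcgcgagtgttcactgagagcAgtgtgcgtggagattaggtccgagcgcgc
Twnk, chr19:45006508-45006587, plus strand: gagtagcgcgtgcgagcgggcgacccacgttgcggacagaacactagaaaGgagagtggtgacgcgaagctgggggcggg
Hirip3, chr7:126861922-126862001, plus strand: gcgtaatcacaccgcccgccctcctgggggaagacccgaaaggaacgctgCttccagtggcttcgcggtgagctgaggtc
H2-M5, chr17:36989504-36989583, minus strand: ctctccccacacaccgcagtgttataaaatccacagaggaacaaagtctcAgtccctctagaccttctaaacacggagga
Wnk1, chr6:120038626-120038705, minus strand: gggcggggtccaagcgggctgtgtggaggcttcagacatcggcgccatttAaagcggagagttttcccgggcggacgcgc
Lcmt2, chr2:121140669-121140748, minus strand: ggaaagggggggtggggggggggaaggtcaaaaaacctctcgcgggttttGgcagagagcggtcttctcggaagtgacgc
Togaram1, chr12:64965692-64965771, plus strand: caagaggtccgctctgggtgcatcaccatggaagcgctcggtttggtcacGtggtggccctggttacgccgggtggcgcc

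Over all genes this first letter differed little between the classes. A RefSeq start lay within 100 bp of the table's start for 425 genes with a peak in the D395A list only, 121 with a peak in both lists and 564 with a peak in the WT list only. The letter was A in 31.1% of the genes of the D395A list only, 34.7% of those in both lists and 34.4% of those of the WT list only. Over all 8407 multi-exon genes with such a start it was A in 29.3%. GGAC stood in the first 50 transcribed bases of 18.6%, 23.1% and 20.9% of the same classes, against 20.3% over all genes. RefSeq annotates 1 start base per transcript and not the base used in these cells.

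Where a RefSeq window reached the summit, the sequence under it can be shown as well. The stretches below are 30 bases around the summit, with GGAC in capitals. They were chosen after searching for GGAC on the transcribed strand, and show where these letters fall near summits of each list. In Bccip the summit lay 6 bp from the table's start, and GGAC stands before that start, outside the first exon.
Bccip, D395A list, chr7:133709324-133709353, plus strand: gcgGGACtcgcgcaggcgcagtgtgaccgg
Atp6v1f, D395A list, chr6:29467787-29467816, plus strand: gtttgggaagcgctctgcccggcGGACagg
Hltf, D395A list, chr3:20057818-20057847, plus strand: cagactgttgcaggaaggagtggtgtGGAC
Nhs, WT list, chrX:162159494-162159523, minus strand: cctcagcgtctctGGACtgcccggatcgct
Trmt61b, WT list, chr17:71598312-71598341, minus strand: ctcctggtccctttccagaGGACtcttttc
Alg9, WT list, chr9:50775166-50775195, plus strand: aaaggaaGGACgaaatacccagagtcagaa

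Stretches of 100 bases around a summit were covered for 27 D395A and 45 WT members. GGAC was in 8 of the D395A stretches (29.6%) and in 22 of the WT stretches (48.9%), against 34.6% of all stretches of that length in the RefSeq windows. The same 4 letters on the opposite strand were in 37.0% of the D395A stretches and 26.7% of the WT stretches. GGACT, which contains GGAC, was in 2 of the 27 and 10 of the 45. In stretches of 30 bases the order was the other way, with GGAC in 9 of 50 D395A stretches (18%) and 8 of 74 WT stretches (10.8%), against 11.4% of all stretches of that length. With so few stretches no order of the lists can be read from either length. These windows end 50 bases after a start, so only summits that lie near an annotated start could be read. Most of each window lies before its start, so the shares over all stretches are mostly of upstream sequence and not a like background.

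In the lists as deposited, which have unlike thresholds, first exons held a similar share of D395A and WT peaks. The rest of the lists differed more. Introns held 67.3% of D395A summits and 29.9% of WT summits, and last exons held 4.80% and 17.1%. Internal exons held 9.41% of D395A summits and 13.4% of WT summits. The D395A list is the one thresholded on p, at 0.05, and the WT list on q, at 0.05, as their smallest deposited values show. At a q of at most 0.05, 288 of the 914 D395A first-exon peaks remained (31.5%), against 13.6% of all D395A peaks. First exons thus held 288 of the 5275 D395A peaks at that q, a larger share than the 1277 of 48445 in WT. A gene missing from a list is therefore a gene with no peak past that list's threshold, not a gene without m6A.

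First-exon peaks ranked higher within the D395A list than within the WT list. Of the D395A first-exon peaks 45.0% ranked among the best 25% of their list by -log10 p, against 29.2% of the WT ones. The best 10% of the D395A list was 5.96% first-exon peaks and its last 10% was 1.57%. In the WT list these shares were 2.77% and 3.24%. A rank within lists of different length and threshold does not measure a change in m6A.

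Summits in the D395A list sat close to the gene start. Their median distance was 201.5 bp (quartiles 130 and 387), against 346 bp in the WT list (quartiles 188 and 668). Within 300 bp of the start lay 608 D395A summits (66.5%) and 546 WT summits (42.8%). The stretch from 100 to 200 bp alone held 296 D395A summits (32.4%), against 210 WT summits (16.4%). The far end was similar in size: 102 D395A summits (11.2%) and 183 WT summits (14.3%) lay 1000 bp or more from the start. With 1 list per genotype there is no replicate spread for these values and no test was made.

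**Figure D1:**
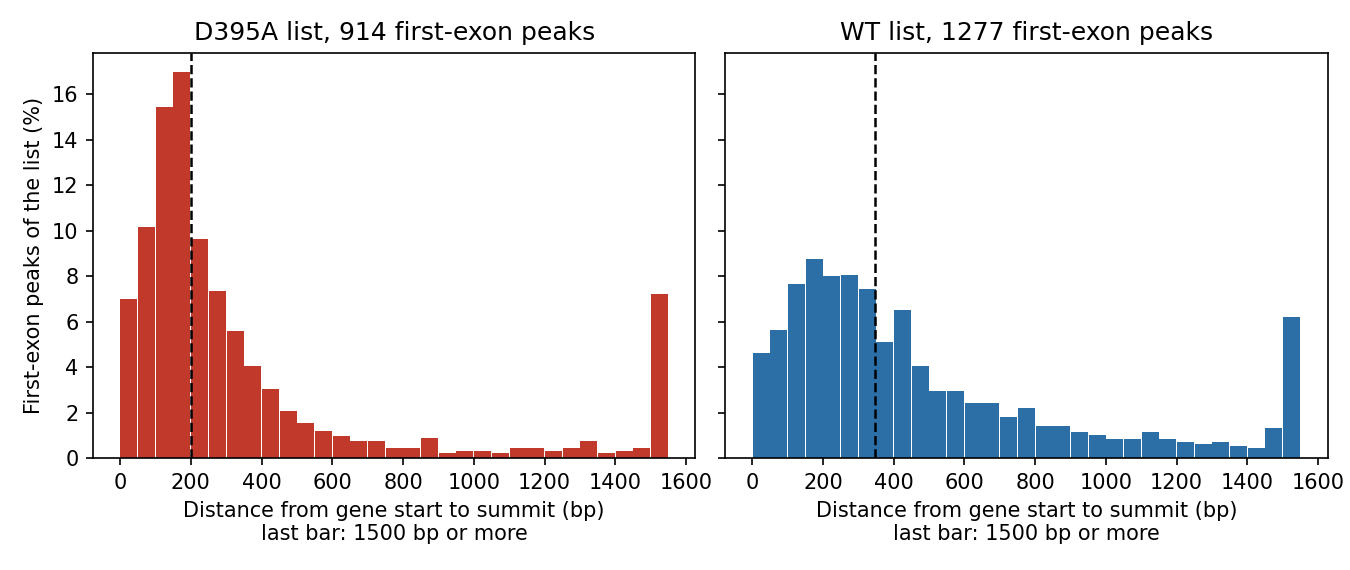
Share of each list's first-exon peaks (y axis, percent) by distance from gene start to summit in 50 bp steps (x axis, bp), D395A list on the left and WT list on the right. Dashed lines are the medians, 201.5 bp and 346 bp, and the last bar holds all summits at 1500 bp or more.

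The peaks also reached the start itself. The 5′ edge of the D395A peaks lay a median of 17 bp before the annotated start and that of the WT peaks 3 bp after it. The edge was before the start in 491 D395A peaks (53.7%) and 633 WT peaks (49.6%). Peaks ran past the end of the first exon in 213 D395A members (23.3%) and 509 WT members (39.9%).

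The genes in the 2 lists differed in the length of the first exon, which bounds the distance. The first exons of D395A members had a median length of 463.5 bp, against 749 bp for WT members. In first exons under 500 bp the median distance was 153 bp in the D395A list and 159.5 bp in the WT list. In first exons of at least 500 bp it was 394 bp and 481 bp. Within exons of 200 to 300 bp the medians were 137.5 bp in D395A and 148 bp in WT, within 300 to 500 bp 177 and 192 bp, and within 500 to 1000 bp 281 and 360 bp. In exons of 1000 to 2000 bp the D395A summits lay at a median of 483 bp and the WT summits at 724.5 bp. In exons over 2000 bp the order turned, with 1301.5 bp in D395A and 1145 bp in WT. In short first exons the lists thus differed by little, and the gap over all members moved with exon length.

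The share of genes with a peak differed with first-exon length, and in a different way in each list. Of 15142 tested multi-exon genes, 5.67% had a first-exon peak in the D395A list and 7.54% in the WT list. In first exons of 200 to 300 bp the D395A share was 5.38% and the WT share 2.55%. In exons of 300 to 500 bp the shares were 8.16% and 7.42%. From 500 to 1000 bp they were 10.2% and 22.4%, and from 1000 to 2000 bp 14.8% and 36.4%. Over 2000 bp the D395A share was 20.0% and the WT share 28.8%, below that of the class before. Under 100 bp only 4 D395A genes (0.194%) and 9 WT genes (0.436%) had a peak. The D395A list thus held more of the genes with first exons of 100 to 500 bp, and the WT list more of those over 500 bp. The first exon was the longest exon of the gene in 17.4% of the genes of the D395A list only, 27.6% of those in both lists and 26.3% of those of the WT list only, against 8.35% of all tested multi-exon genes.

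**Figure D2:**
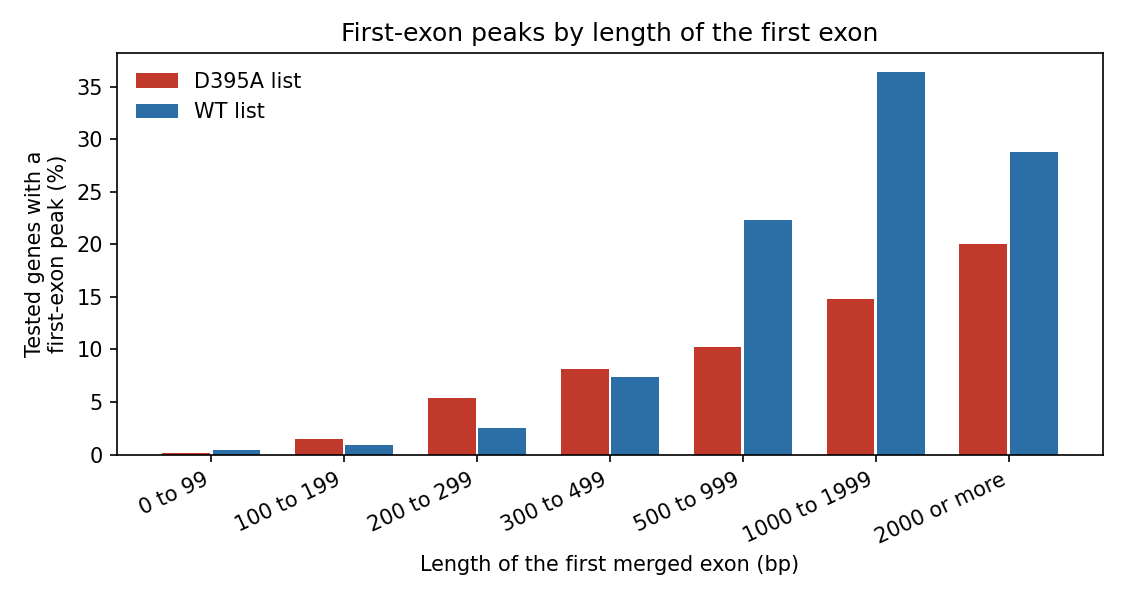
Percent of tested multi-exon genes with a first-exon peak (y axis) by length of the first merged exon in bp (x axis), D395A list left of WT list. The D395A share is the larger one from 100 to 500 bp, and the WT share reaches 36.4% at 1000 to 2000 bp.

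Peaks were narrower and less enriched in the D395A list. Width and fold enrichment of immunoprecipitate over input are the authors' values throughout. The median width of first-exon peaks was 323.5 bp in D395A, against 309 bp for all D395A peaks, and 627 bp in WT, against 595 bp for all WT peaks. The smallest width of the D395A list, 298 bp, was met by 279 D395A members (30.5%). The smallest WT width, 277 bp, was met by 44 WT members (3.45%). Median fold enrichment was 2.93 in D395A members and 2.66 in the whole D395A list, and 5.76 in WT members and 6.31 in the whole WT list. In fold enrichment first exons thus stood above their own list in D395A and below it in WT, and in width above it in both.

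Most genes carried the first-exon peak in a single list. There were 694 genes with a peak in the D395A list only, 196 in both and 1036 in the WT list only. The shared genes are 22.0% of the D395A genes and 15.9% of the WT genes. By position, 188 D395A members (20.6%) overlapped a WT member by at least 1 bp, and 185 WT members (14.5%) overlapped a D395A member. Any peak of the other list was overlapped by 229 D395A members (25.1%) and 216 WT members (16.9%). Counted the same way, 13.5% of all D395A peaks and 10.1% of all WT peaks overlapped the other list. For internal exons these shares were 25.1% in D395A and 14.3% in WT, for last exons 44.0% and 10.6%, and for introns 6.54% and 9.81%. Where a gene had peaks in both lists, the best D395A summit lay closer to the start in 129 of 196 genes (65.8%), and the best summits were within 100 bp of each other in 97 (49.5%). The median difference in distance, D395A minus WT, was -30 bp, with quartiles of -209.25 and 29 bp.

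The genes in both lists differed in how far apart their summits lay. In Ythdc1, the nuclear m6A reader, both summits sat at the same place, 137 bp from the start in D395A and 150 bp in WT, with a fold enrichment of 5.01 and 5.25 and a width of 303 and 323 bp. In Lgr4, an R-spondin receptor, they lay 141 bp and 157 bp from the start. In Wnk1, a kinase that controls ion transport, the D395A summit lay 160 bp from the start and the WT summit 1169 bp from it, under a D395A peak of 512 bp and a WT peak of 2057 bp. Tbx3, a naive pluripotency factor, had the same order of summits, at 376 bp in D395A and 1455 bp in WT. In Wnk1 and Tbx3 the WT peak covered the D395A summit. Twnk, the mitochondrial DNA helicase, had summits at 149 bp in D395A and 1325 bp in WT. Its D395A peak ended before the better of its 2 WT peaks began. In Ppp1r9b, which encodes spinophilin, and in Egr1, an immediate early factor, both summits were far inside long exons. They lay at 1510 bp in D395A and 1560 bp in WT in Ppp1r9b, and at 1496 bp and 1694 bp in Egr1.

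Genes of the D395A list were well expressed. Fewer cells of a type and less RNA per cell cannot be told apart in these bulk libraries. Genes with a first-exon peak in the D395A list only had a median of 73.0 and 75.3 CPM in the D395A libraries and 78.0 and 78.4 CPM in the WT libraries. Genes in both lists had medians of 75 and 77.9 CPM in D395A and 76.6 and 80.0 CPM in WT. Genes of the WT list only were lower, with 29.98 and 30.4 CPM in D395A and 25.0 and 24.5 CPM in WT. Per kilobase of merged exon, the D395A list only had 13.8 and 14.3 CPM in D395A and 14.5 CPM in each WT library, and the WT list only had 6.14 and 6.03 CPM in D395A and 5.48 and 5.39 CPM in WT. Tested multi-exon genes with no such peak had 5.46 and 5.43 CPM per kilobase in D395A and 5.17 and 5.19 in WT. These levels passed the count filter for 668 of 694 genes of the D395A list only, 191 of 196 in both lists and 951 of 1036 of the WT list only. Of the 85 WT genes that did not pass, 3 had no count in any library.

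The share of genes with a first-exon peak followed RNA level in D395A and was flatter in WT. Among genes under 1 CPM in the same genotype the share was 0.870% in D395A and 3.63% in WT. At 1 to 10 CPM it was 1.83% and 7.28%, at 10 to 50 CPM 5.13% and 8.54%, and at 50 to 100 CPM 7.76% and 9.66%. At 100 CPM or more it was 13.1% in D395A and 7.74% in WT. The RNA-seq and the chromatin RNA are different preparations, and the depth of the m6A libraries is not given by the lists.

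**Figure D3:**
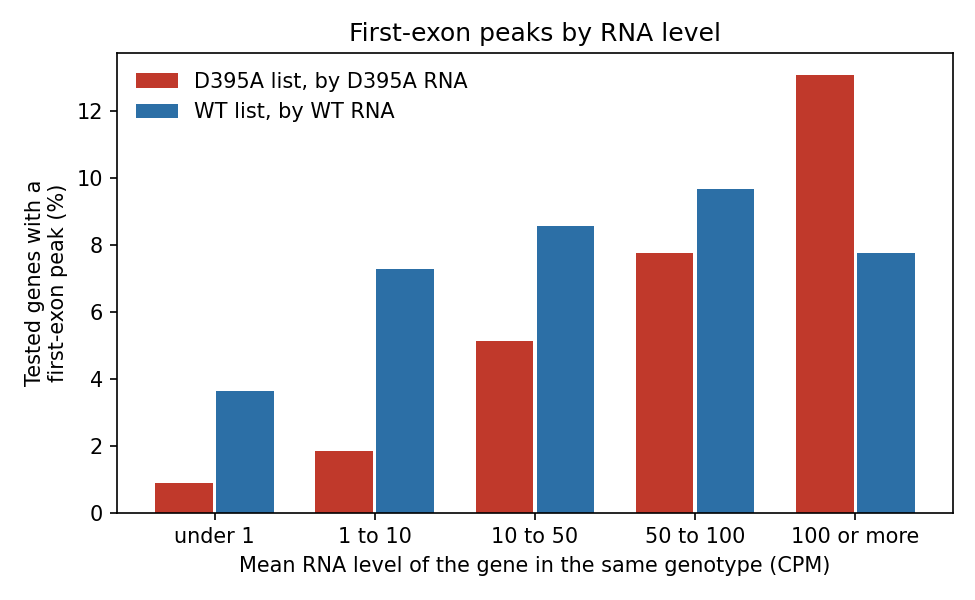
Percent of tested multi-exon genes with a first-exon peak (y axis) by mean RNA level of the gene in the same genotype in CPM (x axis), D395A left of WT. The D395A share runs from 0.870% to 13.1%, and the WT share from 3.63% to 9.66% with 7.74% in the top class.

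RNA of these genes changed in both directions between D395A and WT cells. Over all 17778 tested genes 36.8% were called higher and 34.3% lower in D395A (edgeR quasi-likelihood test, Benjamini-Hochberg adjusted p under 0.05). Of the 668 tested genes with a first-exon peak in the D395A list only, 196 rose (29.3%) and 274 fell (41.0%), with a median log2 fold change of -0.08. Of the 191 tested genes in both lists, 72 rose (37.7%) and 68 fell (35.6%), with a median of 0.01. Of the 951 tested genes of the WT list only, 423 rose (44.5%) and 278 fell (29.2%), with a median of 0.15. The median over all tested genes was 0.00. Changes of at least 2-fold were fewer than over all genes, where 20.0% were higher and 11.9% lower. They were 55 higher (8.23%) and 39 lower (5.84%) for the D395A list only, 18 higher and 15 lower for both lists, and 179 higher (18.8%) and 85 lower (8.94%) for the WT list only.

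These counts differed with RNA level and, for genes without overlap with other genes, with the fit. Of the 5291 tested genes that averaged 50 CPM or more, 29.4% were called higher and 46.3% lower. At that level 100 of 427 genes of the D395A list only rose (23.4%) and 209 fell (48.9%). Of 341 genes of the WT list only 150 rose (44.0%) and 123 fell (36.1%), and of 119 genes in both lists 42 rose (35.3%) and 49 fell (41.2%). The balance of the D395A list only was thus near that of other well expressed genes, and that of the WT list only was not. Whether counting used strand is not given, and an opposite-strand gene shared exonic bases with 29.5% of tested genes of the D395A list only, 33.0% of those in both lists and 31.5% of those of the WT list only. Without such overlap 144 of 471 genes of the D395A list only rose and 188 fell, 42 of 128 in both lists rose and 44 fell, and 273 of 651 of the WT list only rose and 200 fell. Over all 12377 genes without overlap 32.3% were called higher and 37.1% lower. When the model was scaled and fitted again on these 12377 genes alone, 4283 were called higher and 4248 lower. For the same genes of each class this refit gave 162 higher and 171 lower for the D395A list only, 47 higher and 41 lower for both lists, and 290 higher and 178 lower for the WT list only. The excess of lower calls in the D395A list only was thus small in the refit, and the balance of the genes in both lists turned. The balance over all 12377 genes turned as well, so this is not particular to these classes.

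**Figure D4:**
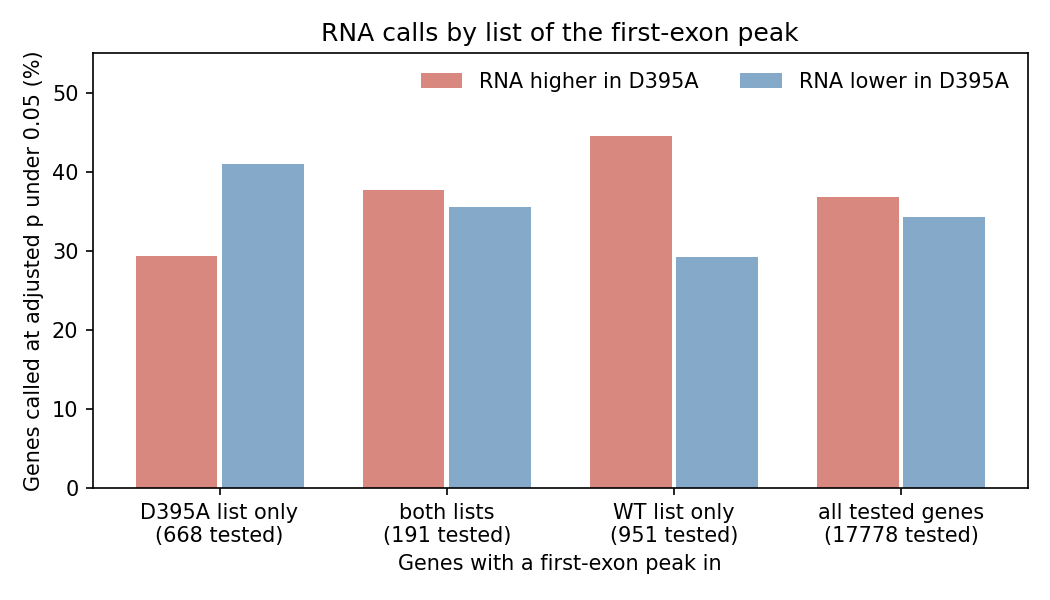
Percent of tested genes called higher (red) or lower (blue) in D395A at an adjusted p under 0.05 (y axis), by the list that holds the first-exon peak (x axis). Genes of the D395A list only have more lower calls (41.0%) than higher ones (29.3%), and genes of the WT list only have more higher ones (44.5%) than lower ones (29.2%).

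The best-ranked first-exon peaks of the D395A list alone lay mostly on transcripts above the class median in RNA level, with Gm19426 far below it. Nufip2, which encodes an RNA-binding partner of FMRP, had the best one at chr11:77686015-77686472, with the summit 139 bp from the start, a fold enrichment of 6.77 and rank 29 of its list. Its RNA was at 282 and 297 CPM in D395A, against 317 and 309 CPM in WT (log2 fold change -0.11 ± 0.06 SE, edgeR adjusted p = 0.132). The libraries of both genotypes did not overlap, but the difference did not pass the test. Pabpc1, the cytoplasmic poly(A)-binding protein, had its summit 189 bp from the start and a fold enrichment of 4.89. It was the most abundant of those described here, at 1569 and 1523 CPM in D395A, against 1676 and 1561 CPM in WT. Fth1, the ferritin heavy chain, had a summit 87 bp from the start and 412 and 367 CPM in D395A, against 365 and 322 CPM in WT. The Fth1 difference did not pass the test (edgeR adjusted p = 0.0528), but it passed under 9 of 10 alternatives. Without D395A replicate 2 Nufip2 passed the test as lower, with a log2 fold change of -0.15.

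A further 4 of the best-ranked genes changed in RNA. Hspa5, the endoplasmic reticulum chaperone BiP, had its summit at 387 bp and rose to 277 and 266 CPM in D395A, against 231 and 226 CPM in WT (log2 fold change 0.25 ± 0.06, edgeR adjusted p = 0.00262). Without WT replicate 2 the Hspa5 difference no longer passed the test, at a log2 fold change of 0.23. Hnrnpu, a nuclear RNA- and chromatin-binding protein, had its summit at 390 bp and fell to 838 and 813 CPM in D395A, against 1073 and 1029 CPM in WT. Actn1, an alpha-actinin, had its summit at 134 bp and fell to 199.9 and 209 CPM in D395A, against 354 and 329 CPM in WT (log2 fold change -0.74 ± 0.07, edgeR adjusted p = 1.80e-07). Gm19426, a gene with no described role, rose to 12.02 and 12.97 CPM in D395A, against 7.62 and 9.34 CPM in WT. An opposite-strand gene covers 6.93% of the exonic bases of Hnrnpu and 8.15% of those of Actn1. In these 4 genes the libraries of the genotypes did not overlap.

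**Figure D5:**
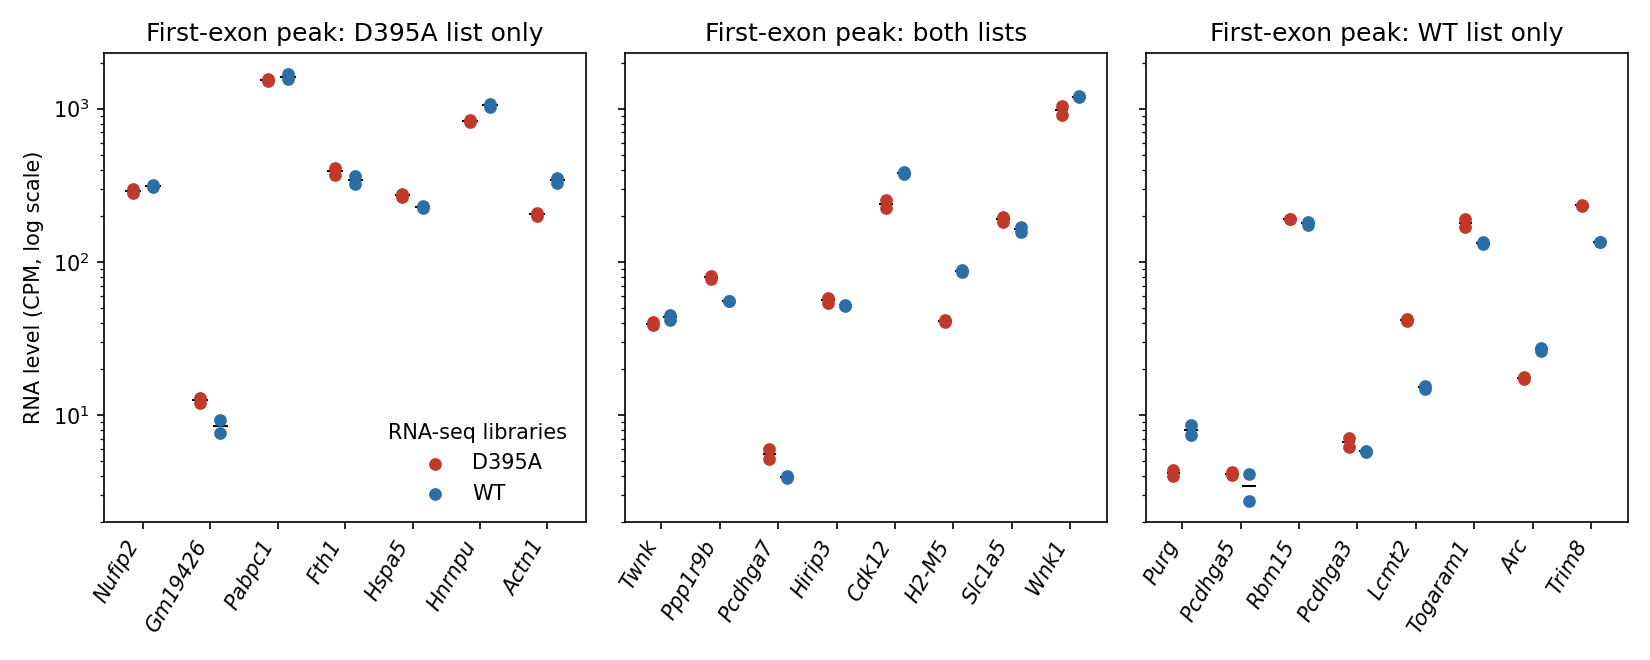
RNA level in CPM on a log scale (y axis) of best-ranked genes (x axis) with a first-exon peak in the D395A list only (left), both lists (middle) and the WT list only (right). Each point is 1 library, D395A left of WT in each gene, and short lines are means of 2 libraries.

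Large RNA changes also occurred among genes with a D395A peak alone. The fold enrichment of the peaks of the 8 genes described ran from 2.57 to 4.11, and the median over all D395A members was 2.93. Zfhx4, a homeodomain zinc finger factor, was at 59.0 and 56.1 CPM in D395A, against 0.598 and 1.07 CPM in WT (log2 fold change 6.03 ± 0.15, edgeR adjusted p = 3.21e-13). Its peak had rank 4320 and lay 216 bp from the start. Among the peaks of the 8 genes, only that of Zfhx4 had a q of at most 0.05, the threshold of the WT list. Igfbp5, a binding protein of insulin-like growth factors, was at 63.8 and 66.9 CPM in D395A, against 1.87 and 1.88 CPM in WT (log2 fold change 5.12 ± 0.12). Tshz1, a teashirt zinc finger factor, and Amot, a regulator of Hippo signalling, rose with log2 fold changes of 4.0 ± 0.15 and 3.93 ± 0.14. In these 4 genes the WT libraries were at 2.63 CPM or less. That none had a WT peak in the first exon follows from the definition of the class. In the other direction, Tdgf1, the Nodal co-receptor Cripto, fell to 57.9 and 65.0 CPM in D395A, against 496 and 506 CPM in WT (log2 fold change -3.02 ± 0.08, edgeR adjusted p = 3.25e-13). It had a D395A peak 159 bp from its start and none there in the WT list, although its RNA was lower in D395A. Gm20541, Sh3gl2, which encodes endophilin A1, and Plekhd1 fell with log2 fold changes of -3.65 ± 0.17, -2.05 ± 0.07 and -1.58 ± 0.12.

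Among the genes in both lists by best joint rank, Cdk12, a kinase of elongating RNA polymerase II, fell to 226 and 254 CPM in D395A, against 384 and 376 CPM in WT (log2 fold change -0.66 ± 0.07, edgeR adjusted p = 1.07e-06). Its summits lay at 568 bp in D395A and 742 bp in WT, with fold enrichments of 2.98 and 3.61. H2-M5, a non-classical major histocompatibility gene, fell to 40.2 and 41.9 CPM in D395A, against 86.1 and 88.2 CPM in WT, with summits at 176 bp in D395A and 491 bp in WT. Wnk1 fell to 915 and 1045 CPM in D395A, against 1185 and 1201 CPM in WT. Slc1a5, a glutamine transporter, rose to 181 and 196 CPM in D395A, against 168 and 157 CPM in WT, and Ppp1r9b rose to 77.7 and 80.5 CPM, against 55.9 and 55.6 CPM in WT. Pcdhga7, a clustered protocadherin, rose to 5.17 and 6.01 CPM in D395A, against 3.88 and 3.97 CPM in WT. An opposite-strand gene covers 10.3% of its exonic bases. The Pcdhga7 call was lost without WT replicate 1, WT replicate 2 or D395A replicate 2, at log2 fold changes of 0.50, 0.53 and 0.40, and with DESeq2. The Wnk1 call was lost without either WT library, at -0.29 and -0.27, and that of Slc1a5 without WT replicate 2, at 0.17. Twnk was at 40.2 and 38.8 CPM in D395A, against 41.9 and 45.1 CPM in WT, and Hirip3, a partner of the histone chaperone HIRA, at 53.9 and 58.1 CPM in D395A, against 51.5 and 52.6 CPM in WT. Neither of these differences passed the test (edgeR adjusted p = 0.0947 and 0.19), although Hirip3 passed as higher without D395A replicate 1, at a log2 fold change of 0.18.

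The largest increases among genes in both lists, counted where no opposite-strand gene overlaps and the mean is at least 10 CPM, included a histone demethylase. Phf8, which removes methyl groups from H3K9me2 and related marks, rose to 278 and 320 CPM in D395A, against 87.5 and 85.7 CPM in WT (log2 fold change 1.79 ± 0.07, edgeR adjusted p = 4.56e-11). Its summits lay at 277 bp in D395A and 584 bp in WT, and its D395A peak had a fold enrichment of 2.20 and its WT peak 8.38. Trib2, a pseudokinase, rose to 50.6 and 51.1 CPM in D395A, against 3.06 and 2.90 CPM in WT. Tbc1d4, a regulator of glucose transport, and Sdc2, a syndecan, rose with log2 fold changes of 2.06 ± 0.13 and 1.45 ± 0.09. Within the same limits, the genes that fell most were C130074G19Rik, Platr10, a long non-coding RNA of stem cells, Trmt44, a transfer RNA methyltransferase, and Gm21811, with log2 fold changes between -2.40 and -1.15. Tbx3, with 1.74% of its exonic bases overlapped, fell further. In the 8 genes without overlap the 2 genotypes did not overlap.

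The best first-exon peaks of the WT list alone were broad and lay in long first exons. Purg, a purine-rich element binding protein, had rank 10 of the WT list, a width of 2336 bp, a fold enrichment of 15.4 and its summit 300 bp from the start. Its RNA fell to 4.34 and 3.99 CPM in D395A, against 8.59 and 7.35 CPM in WT. Rbm15, a subunit of the complex that directs METTL3, had a peak of 4118 bp in a first exon of 6539 bp, with its summit 1493 bp from the start. Its RNA was at 189.8 and 189.6 CPM in D395A, against 174 and 183 CPM in WT (log2 fold change 0.09 ± 0.06, edgeR adjusted p = 0.21). Pcdhga5 and Pcdhga3, clustered protocadherins, had summits 1923 and 2110 bp from their starts and fold enrichments of 30.6 and 18.04, and their RNA differences did not pass the test. By the definition of the class, none of these 8 genes had a first-exon peak in the D395A list.

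The other 4 changed in RNA. Lcmt2, an enzyme of transfer RNA modification, rose to 41.3 and 42.1 CPM in D395A, against 14.9 and 15.4 CPM in WT (log2 fold change 1.46 ± 0.08, edgeR adjusted p = 1.33e-09). Its WT peak had a fold enrichment of 22.6 and a summit at 1412 bp. Togaram1, a protein of cilia, rose to 169 and 189 CPM in D395A, against 131 and 135 CPM in WT. Trim8, a ubiquitin ligase, rose to 234 and 233 CPM, against 135 and 134 CPM in WT. Arc, an immediate early gene of neurons, fell to 17.3 and 17.6 CPM in D395A, against 27.4 and 26.2 CPM in WT. The D395A libraries lay outside the WT libraries in each of them.

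Genes of the WT list only also held large RNA changes. Gna14, a G protein subunit, was at 43.4 and 44.5 CPM in D395A, against 0.822 and 0.537 CPM in WT (log2 fold change 6.05 ± 0.16, edgeR adjusted p = 4.99e-13). It carried a first-exon peak in the WT list at that low level and none in the D395A list. Sema3e, a semaphorin, did likewise, with 35.5 and 38.01 CPM in D395A and 0.897 and 0.590 CPM in WT. Rnf217 and Gdpd5 rose with log2 fold changes of 3.79 ± 0.12 and 3.62 ± 0.14. Lefty2, an antagonist of Nodal, fell to 6.16 and 7.60 CPM in D395A, against 129 and 122 CPM in WT (log2 fold change -4.16 ± 0.10, edgeR adjusted p = 1.41e-13). Gm13110, Aard and Mir124a-1hg, a host gene of miR-124, fell with log2 fold changes of -5.12 ± 0.16, -4.04 ± 0.19 and -2.60 ± 0.11.

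Genes of m6A itself carried first-exon peaks in both genotypes. Of 24 tested multi-exon writers, readers and erasers, 5 had one in the D395A list and 5 in the WT list, and 1, Ythdc1, in both. Those were 20.8% in each list, against 5.67% and 7.54% of all tested multi-exon genes. Of the 9 genes with a peak, 5 rose and 1 fell, and of the 15 without one 4 rose and 5 fell. Over all tested genes 36.8% were called higher and 34.3% lower. Ythdc1 rose to 193 and 204 CPM in D395A, against 132 and 145 CPM in WT (log2 fold change 0.52 ± 0.07, edgeR adjusted p = 6.88e-06). Hnrnpa2b1, a nuclear protein that binds m6A RNA, had 2 peaks in the D395A list alone and rose to 789 and 706 CPM in D395A, against 483 and 518 CPM in WT. Mettl5, which methylates ribosomal RNA, had a D395A peak 138 bp from the start, and its RNA was at 28.3 and 26.5 CPM in D395A, against 29.6 and 31.6 CPM in WT (edgeR adjusted p = 0.086). Mettl3 had no first-exon peak in either list. It was measured at 30.6 and 33.9 CPM in D395A, against 36.2 and 35.5 CPM in WT (edgeR adjusted p = 0.114), and was called lower without D395A replicate 2, at a log2 fold change of -0.23. Counts of a transcript with a changed codon do not check the genotype, and 21.1% of its exonic bases are covered by an opposite-strand gene.

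Genes that act on the cap had a first-exon peak more often in the WT list than in the D395A list. Of 19 cap enzymes and cap-binding factors, 1 had such a peak in the D395A list (5.26%) and 4 in the WT list (21.1%), and none in both. Over all tested multi-exon genes these shares were 5.67% and 7.54%. The D395A share was thus near that of all genes, and the WT share, which rests on 4 genes, was above it. Pcif1, which writes m6Am beside the cap, had its WT summit 106 bp from the start and rose to 101 and 96.8 CPM in D395A, against 71.9 and 67.6 CPM in WT (log2 fold change 0.50 ± 0.07, edgeR adjusted p = 8.15e-06). An opposite-strand gene covers 16.9% of its exonic bases. Ncbp3, a nuclear cap-binding factor, had a WT summit at 75 bp and fell to 76.3 and 73.0 CPM in D395A, against 98.2 and 95.8 CPM in WT. Nudt16, a nuclear decapping enzyme, had 2 WT peaks, the better one 1486 bp from the start with a fold enrichment of 31.5, and rose to 6.47 and 6.11 CPM in D395A, against 2.69 and 2.47 CPM in WT.

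Among regulators of H3K9 methylation, 1 of 17 methyltransferases and HP1-type readers had a first-exon peak in each list (5.88%), near the 5.67% and 7.54% of all tested multi-exon genes. Mphosph8, a reader in the HUSH complex, had a D395A peak and fell to 86.5 and 82.6 CPM in D395A, against 104 and 104 CPM in WT. Suv39h1, an H3K9 methyltransferase, had a WT peak 22 bp from the start and rose to 89.9 and 96.5 CPM in D395A, against 29.3 and 28.4 CPM in WT (log2 fold change 1.695 ± 0.07, edgeR adjusted p = 6.73e-11). Opposite-strand genes cover 10.7% and 14.6% of their exonic bases. Of 11 demethylases, 3 had a first-exon peak in the D395A list (27.3%) and 1 in the WT list (9.09%). Of the 3 D395A peaks only that of Jmjd1c had a q of at most 0.05, the threshold of the WT list. The 2 shares therefore rest on unlike thresholds. Besides Phf8, which was in both lists, these were Jmjd1c, which fell to 233 and 264 CPM in D395A, against 293 and 285 CPM in WT, and Kdm1a, at 217 and 214 CPM in D395A, against 235 and 218 CPM in WT (edgeR adjusted p = 0.309). The Jmjd1c call was lost in 5 of 10 alternatives, among them without D395A replicate 1, WT replicate 1 or WT replicate 2, at log2 fold changes of -0.10, -0.20 and -0.24.

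Most naive pluripotency genes fell in D395A, both with and without a first-exon peak. Of 23 such genes, 3 had one in the D395A list, 4 in the WT list (17.4%) and 1 in both. Of the 6 with a peak 5 fell and none rose, and of the 17 without one 14 fell and 2 rose. Tbx3, in both lists, fell to 24.3 and 26.6 CPM in D395A, against 536 and 520 CPM in WT (log2 fold change -4.37 ± 0.08, edgeR adjusted p = 3.31e-14). Klf5 had a WT peak 259 bp from the start and fell to 78.7 and 91.4 CPM in D395A, against 347 and 331 CPM in WT. Stat3, the transducer of LIF signalling, had a D395A peak at 253 bp and fell to 171 and 179 CPM in D395A, against 228 and 226 CPM in WT. Of 20 lineage transcription factors, 1 had a D395A peak (5.0%) and 2 a WT peak (10.0%), against 5.67% and 7.54% of all tested multi-exon genes. All 3 rose: Tfap2c, Zic2 and Meis1, with log2 fold changes of 0.40 ± 0.07, 0.56 ± 0.08 and 2.28 ± 0.21. Of the 17 without a peak 7 rose and 8 fell. Over all tested genes 36.8% were called higher and 34.3% lower, and no direction is read from 3 genes. An opposite-strand gene covers 8.51% of the exonic bases of Meis1.

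Signalling genes were spread over both lists. Of 21 FGF and ERK feedback genes, 3 had a D395A first-exon peak (14.3%), 4 a WT one (19%) and 2 both, against 5.67% and 7.54% of all tested multi-exon genes. Of the 5 genes with a peak 3 rose and 2 fell, and of the 16 without one 5 rose and 6 fell. Spry2, an inhibitor of receptor tyrosine kinase signalling, had a D395A peak and fell to 30.2 and 30.4 CPM in D395A, against 88.5 and 83.2 CPM in WT. Dusp4 and Dusp6, phosphatases of MAP kinases, had WT peaks and went in opposite directions, with log2 fold changes of 1.78 ± 0.17 and -0.64 ± 0.13. Spred2, an inhibitor of Ras and ERK signalling, was in both lists and rose with a log2 fold change of 0.29 ± 0.07. Of 24 Wnt genes, 4 had a peak in each list (16.7%) and 3 of those were the same genes. Of the 5 with a peak 2 rose and 1 fell, and of the 19 without one 9 rose and 6 fell. The 3 Wnt genes in both lists were Gsk3b, the kinase that CHIR99021 inhibits, Lgr4 and Tcf7l1, a repressor of Wnt targets. Tcf7l1 had summits at 220 bp in D395A and 258 bp in WT and rose to 173 and 196 CPM in D395A, against 107 and 103 CPM in WT (log2 fold change 0.82 ± 0.07, edgeR adjusted p = 1.04e-07). Of 14 immediate early genes, 3 had a peak in each list (21.4%) and 1, Egr1, in both. Egr1 RNA was low, at 0.761 and 0.319 CPM in D395A, against 0.747 and 0.376 CPM in WT. Of the 5 immediate early genes with a peak 2 rose and 2 fell, and of the 9 without one 3 rose and 3 fell. The call of Junb, 1 of those that rose, was lost without WT replicate 2, without D395A replicate 1 and with DESeq2, at log2 fold changes of 0.27, 0.21 and 0.31. The share of genes called over all genes tested was 36.8% higher and 34.3% lower, and with so few members these counts are a description.

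Chromatin repressors of other kinds were mixed. Of 29 Polycomb genes, 3 had a D395A first-exon peak (10.3%) and 4 a WT one (13.8%), against 5.67% and 7.54% of all tested multi-exon genes. Suz12, a core subunit of the complex that writes H3K27 methylation, had a D395A peak 201 bp from the start and fell to 224 and 224 CPM in D395A, against 343 and 374 CPM in WT. Mtf2, an accessory subunit of the same complex, had a D395A peak of rank 501 and fell to 321 and 316 CPM in D395A, against 427 and 457 CPM in WT. Of 15 DNA methylation genes, 2 had a D395A peak (13.3%) and 1 a WT peak (6.67%), and Mbd3, a subunit of the NuRD complex, rose to 121 and 117 CPM in D395A, against 69.3 and 64.9 CPM in WT. Of 374 zinc finger genes named Zfp, 19 had a D395A peak (5.08%) and 16 a WT peak (4.28%), and 1, Zfp397, both.

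Of 22 SR and SR-like splicing factors, 5 had a first-exon peak in the D395A list (22.7%) and none in the WT list, against 5.67% and 7.54% of all tested multi-exon genes. They were Clk2, Srsf1, Srsf5, Tra2a and Tra2b, of which 2 fell and none rose. Of the 17 without a first-exon peak 9 fell and 3 rose, and over all tested genes 34.3% were called lower and 36.8% higher. Srsf5 had its summit 173 bp from the start and fell to 172 and 156 CPM in D395A, against 237 and 228 CPM in WT. Srsf1 had its summit at 530 bp and was at 447 and 446 CPM in D395A, against 447 and 454 CPM in WT (edgeR adjusted p = 0.862). Of 79 cytosolic ribosomal protein genes, 8 had a D395A peak (10.1%) and 1 a WT peak (1.27%). Rpl28 was the gene in both lists. Of these 8 genes 1 fell and none rose, but 7 were called lower without D395A replicate 1, and 2 higher and 1 lower without D395A replicate 2. No direction is therefore read from them. Without WT replicate 1 none was called, and with DESeq2 none was called. Their copies elsewhere in the genome can share reads, so these counts are uncertain. Of 15 small nucleolar RNA host genes, 3 had a D395A peak (20%) and 1 a WT peak (6.67%), and Snhg5 fell to 60.3 and 52.6 CPM in D395A, against 116 and 107 CPM in WT. The share of D395A peaks rises with RNA level over all genes, as given above, and the part of level in these list counts was not tested.

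A few genes carried several first-exon peaks. In the D395A list Gm38394 had 5 in a first exon of 5974 bp, and Zfhx2 and Bicd1 had 3 each. In the WT list Olfr1372-ps1 had 4 in a first exon of 5936 bp, and Etv3, Hykk and Pcdh17 had 3 each. Zfhx2, a homeodomain factor, fell to 109 and 136 CPM in D395A, against 423 and 410 CPM in WT, with 17.9% of its exonic bases covered by an opposite-strand gene. Etv3, a repressor of the ETS family, was at 49.1 and 53.3 CPM in D395A, against 53.1 and 53.1 CPM in WT (edgeR adjusted p = 0.556). Such long first exons give room for more than 1 summit, and the peaks of 1 gene share its RNA.

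In genes with a first-exon peak in 1 list, peaks of the other list elsewhere in the gene were about as frequent as in all tested multi-exon genes, or less frequent. Of the 694 genes of the D395A list only, 473 (68.2%) had a WT peak in another exon or an intron, and 329 (47.4%) had one in the last exon. Of the 1036 genes of the WT list only, 498 (48.1%) had a D395A peak elsewhere in the gene and 107 (10.3%) one in the last exon. Over all 15142 tested multi-exon genes 54.0% had a D395A peak outside the first exon, 66.8% a WT one, 45.2% a WT peak in the last exon and 10.3% a D395A one. An opposite-strand gene start within 1000 bp was about as frequent in the D395A list only (26.8%), both lists (26.02%) and the WT list only (26.8%) as over all tested multi-exon genes (24.7%).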

How the data were processed

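The lists hold m6A immunoprecipitation of chromatin RNA against input. For RNA-seq the authors deposited a table of unnormalized counts per gene with the coordinates of merged exons, and its strand setting is not stated. The submitters' processing notes name MACS2 2.1.1, featureCounts 1.6.3, edgeR 3.22.5, HISAT2 2.1.0, Bowtie2 2.3.4.1, Trimmomatic 0.33.0, Picard 2.16.0, SAMtools 1.7 and FastQC, without the step each served. Peak positions, fold enrichment and -log10 p are the authors' deposited values in narrowPeak layout, and the deposited -log10 q served as a score for stricter thresholds. How the 2 WT immunoprecipitation and 2 WT input libraries were combined into 1 list is not stated.

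The column named Da95A_1 was taken as D395A replicate 1. Genes with exons on 2 chromosomes or strands, 4 in number, were left out. The test was that of edgeR 4.0.16 in R 4.3.3 (filterByExpr, TMM, quasi-likelihood test, Benjamini-Hochberg over 17778 genes, threshold 0.05), and DESeq2 1.42.0 served as an alternative. CPM use the scaled library sizes. The biological coefficient of variation was 5.47%. The chi-square per degree of freedom between libraries of a genotype was 5.74 in D395A and 2.47 in WT, so spread exceeded counting error. The code was tested on simulated data, and 400 of 400 summits were placed identically by a naive search. Other software was matplotlib 3.10.9, scipy 1.17.1, numpy 2.4.6 and pandas 2.3.3 in Python 3.11.15. Sequences are from RefSeq (GRCm38.p6).

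Genes were named by rule. Per class it took the 8 genes of best peak rank that averaged 1 CPM or more. Per class and direction it took the 4 called genes that changed most among those that averaged 10 CPM or more and had no opposite-strand overlap. It added members of gene lists in both lists or by best rank, the 5 genes with the most first-exon peaks per list, Mettl3 and Pcif1. Clk2 and Tra2a were named after their values were seen. The members and gene lists were chosen with earlier results of these data known. Chromatin immunoprecipitation and the HEK293T lists were not used here. Some genes that the rule names are not reported here.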

Additional observations from a re-analysis of the deposited data

How the results depend on the processing

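The values are limited by 1 peak list per genotype, thresholds that differ between the lists and unknown depth of the m6A libraries. Further limits are 1 m6A immunoprecipitation library in D395A against 2 in WT, and 2 RNA-seq libraries per genotype. Of 138 alternatives tried for the counts, shares and medians, 109 gave a value near the one reported and 29 moved. At a q of at most 0.05 the D395A list kept 288 first-exon peaks, with a median distance of 180 bp, width of 356 bp and fold enrichment of 3.96, and 64 genes were in both lists. At a q of at most 0.01 these were 211 peaks, 179 bp, 361 bp, 4.16 and 45 genes. With the same number of top-ranked peaks per list the WT width was 741 bp and the WT fold 6.49, and 17.9% of D395A members overlapped a WT member. Where the first exon was not the longest, the distance was 179 bp in D395A and 292 bp in WT, the WT width 590 bp and the WT fold 5.38. Counting any overlap with a first exon gave 1400 D395A and 2231 WT peaks. Distances were 394 bp in D395A and 481 bp in WT in first exons of at least 500 bp, and 179 and 309.5 bp from the nearest RefSeq start. In first exons of 300 to 1000 bp, an alternative chosen after seeing the data like that of the RefSeq start, they were 210 bp in D395A and 288 bp in WT. Summits within 200 bp of each other made up 14.2% of D395A members.

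With scaling and fit repeated on genes with no opposite-strand overlap, 162 genes rose and 171 fell in the D395A list only, 47 rose and 41 fell in both lists, and 290 rose and 178 fell in the WT list only. The fit over all genes gave, for the same genes, 144 and 188, 42 and 44, and 273 and 200. Fewer genes entered both than the counts over all members, and the cause of the difference between the fits was not tested. Leaving out each RNA-seq library in turn, with the lone library of its group assumed to vary like the other group, gave 168 to 221 higher and 236 to 292 lower genes for the D395A list only. It gave 63 to 77 and 55 to 73 for both lists, and 390 to 431 and 248 to 281 for the WT list only. Deviations of libraries with the same number correlated at 0.03, so the numbers do not pair the libraries. With the replicate block 197 genes rose and 275 fell in the D395A list only, 74 and 65 in both, and 430 and 284 in the WT list only. Of 1050 values for named genes 1004 kept their side of the threshold, and their direction where called, 22 were no longer called and 23 were newly called. The value that turned was Rps27a, whose log2 fold change was -0.02 with all libraries, 0.15 without D395A replicate 2 and -0.19 without D395A replicate 1.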
